A study of Mus musculus with 48 samples.

Results

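This comparison asked what the arthritis-linked peptide SE did to macrophages that were given IFN-γ. RAW264.7 is a mouse macrophage cell line that is widely used to study macrophage activation and osteoclast formation. One group received SE together with IFN-γ (SE+IFNy) and the other IFN-γ alone (IFNy), with 3 libraries each. They were chosen by the names of their columns in the deposited count table, which use a letter, and make up 6 of the 48 libraries of the series. SE is a synthetic peptide of 15 residues, positions 65 to 79 of the DRβ chain of HLA-DRB1*0401, the "shared epitope" allele tied to rheumatoid arthritis. Peptides were given at 100 µg/ml and IFN-γ at 5 ng/ml for 72 h, with a change of medium at 48 h. For reference, 3 letter-named libraries each were used of cells with IFN-γ and LE (the same stretch of *0301, called the lupus epitope), with IFN-γ and PE (from *0402), with SE alone, and with PBS. All cells were of 1 line, and the study describes its data on them as 6 biological replicates from a smaller number of independent experiments. The labels do not say which libraries share a culture or an experiment, so the p-values measure the spread between these libraries only.

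IFN-γ is the cytokine by which T cells and NK cells activate macrophages. It signals through JAK kinases and STAT factors, and raises guanylate-binding proteins, antigen presentation and the chemokines Cxcl9, Cxcl10 and Cxcl11. NF-κB is a family of transcription factors that drives many chemokine and cytokine genes together with its own inhibitors. SREBP factors switch on sterol and fatty acid synthesis.

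The 6 libraries held 21200505 to 25524974 counted reads. The 15 macrophage markers summed to 9052 to 9773 CPM (counts scaled to the library total) with IFNy and 9785 to 9991 CPM with SE+IFNy. T and NK cell markers summed to at most 0.409 CPM, with 6 of 9 at 0 reads in all 6 libraries. The B cell list summed to 166 to 262 CPM with IFNy and 159 to 168 CPM with SE+IFNy, nearly all of it from Ighm (log2 fold change -0.43, not called, but -0.62 and called without the second IFNy library), while the other 6 of 7 markers had at most 3 reads in any library. The osteoclast markers summed to 109 to 120.1 CPM against 159 to 176 CPM. Neither the macrophage nor the osteoclast sums overlapped between the groups. Lists of other cells were at low levels. The epithelial or endothelial list overlapped, at 1.51 to 1.96 CPM against 1.40 to 2.625 CPM. By their ranges, the neutrophil, dendritic and fibroblast lists were mostly higher with SE+IFNy. The neutrophil list summed to 25.7 to 36.6 CPM against 36.4 to 38.02 CPM, nearly all of it from Csf3r, which was not called. The dendritic list summed to 17.9 to 27.7 CPM against 32.9 to 36.6 CPM, and the fibroblast list to 0.283 to 0.614 CPM against 0.832 to 1.84 CPM. Among their members, S100a9, Ly6g, Flt3, Siglech, Cd209a, Col3a1, Dcn and Lum were at 0 reads. Other members were called higher with SE+IFNy: Mpo (10, 6 and 11 reads against 31, 20 and 17 reads), Ngp (3, 3 and 1 against 11, 11 and 19), Xcr1 (4, 5 and 7 against 18, 8 and 17), Pdgfra (8, 14 and 6 against 26, 18 and 47) and Clec9a (149, 51 and 115 against 193, 155 and 248). Ngp and Xcr1 passed the filter on low counts only through groups other than IFNy, so their calls are not taken as support. By edgeR, the call of Mpo was lost without the second IFNy library (adjusted p = 0.0589) or the first SE+IFNy library (0.0809), that of Clec9a without the second IFNy library (log2 fold change 0.52) or the third SE+IFNy library (adjusted p = 0.0642), and that of Xcr1 without the first IFNy library (0.105), the second (0.0775), the first SE+IFNy library (0.113) or the third (0.0864), and by DESeq2 (0.0641). The part of these lists in the results was not tested. In bulk RNA, a change in the share of cells that express a gene and a change in RNA per cell cannot be told apart.

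The series holds a second set of 24 libraries with the same group labels, in columns named HLA with a running number. Over 35 IFN-γ targets, the mean log2(CPM + 0.5) was 2.39 to 2.41 in the 3 HLA-named libraries labelled IFNy and 2.33 to 2.46 in the 3 labelled SE+IFNy. In the letter-named libraries it was 5.82 to 5.99 with IFNy, 5.97 to 6.10 with SE+IFNy and 2.53 to 2.60 with PBS. These 6 HLA-named libraries thus went against their labels. The HLA-named libraries labelled LE+IFNy (5.65 to 5.71) and PE+IFNy (5.83 to 5.89) carried the response. Which labels or columns of that set are right was not settled here, and its libraries were used only where they are named. Between those labelled SE+IFNy and IFNy, 10 of 14110 genes were called, among them Acsbg1 and Cd33, which moved there opposite to their change in the letter-named libraries.

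With SE added to IFN-γ, 14 of 18 chemokines, 9 of 16 growth, bone and vessel factors, 11 of 32 immediate-early genes and 14 of 48 type I interferon targets were called higher, against 5.01% of all genes tested. In the other direction, 18 of 50 mitosis genes and 12 of 44 sterol and fatty acid synthesis genes were called lower, against 2.38%. So were 9 of 40 ER chaperone and unfolded protein response genes, while Ern1 of that list was called higher. A gene was called changed at an adjusted p under 0.05 by edgeR's quasi-likelihood test and a fold change over 1.5, and all adjusted p-values below are of that test. Of 12720 genes tested, 637 were higher with SE (5.01%) and 303 lower (2.38%). Each count of list members given below for SE+IFNy against IFNy is to be read beside these shares. The median log2 fold change of all genes tested was -0.0061. The 3 and 3 libraries did not overlap for 919 of the 940 called genes, against 42.7% of all genes tested.

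**Figure D1:**
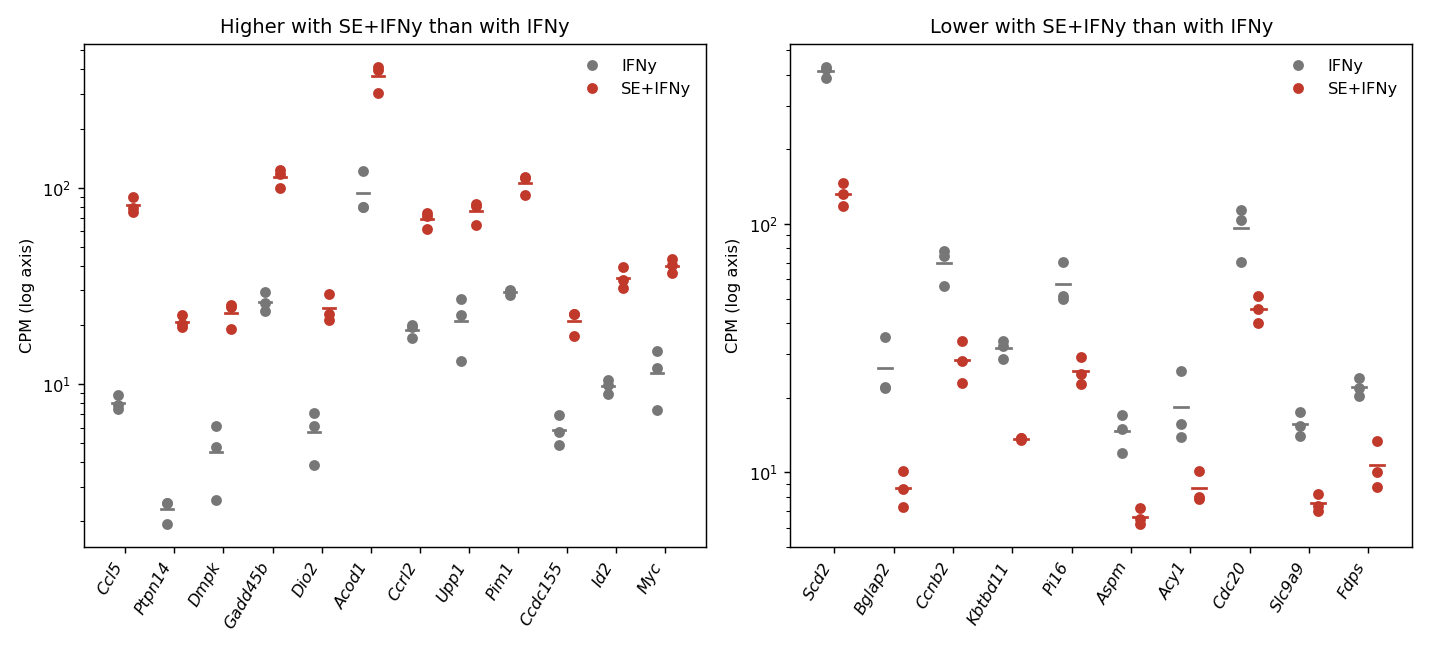
CPM (log axis) of the 12 leading higher genes and 10 of the leading lower genes, with 1 point per library, a bar at the mean of 3 libraries, IFNy in grey and SE+IFNy in red. The groups are apart for each gene shown, which the choice of genes required, from Ccl5 (at most 8.81 against at least 75.4 CPM) to Scd2 (at least 387 against at most 147 CPM).

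Ccl5 (chr11:83525778-83530518, GRCm38), a chemokine that attracts T cells and monocytes, had the largest rise among called genes with a mean of at least 10 CPM and no overlap, the rule for the leading genes. It had 7.84, 7.47 and 8.81 CPM in the IFNy libraries and 89.7, 78.7 and 75.4 CPM in the SE+IFNy libraries. The groups were far apart, with a log2 fold change of 3.34 ± 0.0855 (standard error, adjusted p = 1.48e-14). Ptpn14, a tyrosine phosphatase, had 2.48, 1.93 and 2.48 CPM with IFNy and 22.4, 19.5 and 20.3 CPM with SE+IFNy. Its log2 fold change was 3.18 ± 0.137 (adjusted p = 3.22e-11). Acod1, whose product makes itaconate in activated macrophages, had 80.1, 122 and 80.2 CPM with IFNy and 412, 303 and 398 CPM with SE+IFNy. All SE+IFNy libraries lay above all IFNy libraries, with a log2 fold change of 1.98 ± 0.137 (adjusted p = 8.98e-09). The other leading genes were Dmpk (2.38), Gadd45b (2.11), Dio2 (2.10), Ccrl2 (1.88), Upp1 (1.86), Pim1 (1.85), Ccdc155 (1.84), Id2 (1.84) and Myc (1.83), all as log2 fold changes. Dio2 encodes the deiodinase that activates thyroid hormone, Pim1 a kinase induced by cytokines, and Id2 an inhibitor of helix-loop-helix factors.

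Promoters are shown for 1 gene from each of 4 groups that moved, to show the letters near the start sites of a chemokine, an antiviral, a sterol and a mitosis gene. Each is the 250 bases before the RefSeq start (GRCm38.p6), read on the strand of the gene, with motif matches on either strand in capitals. The motifs searched were the κB consensus, the ISRE core (interferon response), TGANTCA (AP-1), TCACNCCAC (sterol response), CCAAT and TTTGAA (a mitosis gene element). Cxcl10 (chr5:92348890-92349139, minus strand) held 3 κB matches, 2 of them overlapping, and 1 each of the ISRE core, TGANTCA and CCAAT. Rsad2 (chr12:26456453-26456702, minus strand) held the ISRE core and TGANTCA. Mvd (chr8:122443423-122443672, minus strand) held CCAAT at 2 places, and Ccnb2 (chr9:70421555-70421804, minus strand) held it at 3, with TTTGAA at 1.
Cxcl10: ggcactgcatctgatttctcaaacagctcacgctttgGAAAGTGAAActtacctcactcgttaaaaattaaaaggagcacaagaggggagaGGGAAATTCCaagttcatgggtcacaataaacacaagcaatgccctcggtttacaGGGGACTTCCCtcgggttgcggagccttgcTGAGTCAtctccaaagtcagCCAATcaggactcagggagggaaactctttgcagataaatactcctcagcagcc
Rsad2: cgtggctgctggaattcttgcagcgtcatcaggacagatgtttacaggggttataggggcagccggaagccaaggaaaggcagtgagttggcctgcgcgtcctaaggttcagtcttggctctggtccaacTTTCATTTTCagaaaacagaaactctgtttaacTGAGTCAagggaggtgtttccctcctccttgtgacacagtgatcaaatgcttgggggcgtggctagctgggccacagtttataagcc
Mvd: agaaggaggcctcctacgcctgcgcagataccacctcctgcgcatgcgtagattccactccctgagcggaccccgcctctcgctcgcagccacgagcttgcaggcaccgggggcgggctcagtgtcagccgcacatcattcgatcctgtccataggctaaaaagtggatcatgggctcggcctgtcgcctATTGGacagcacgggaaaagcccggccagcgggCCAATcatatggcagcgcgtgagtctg
Ccnb2: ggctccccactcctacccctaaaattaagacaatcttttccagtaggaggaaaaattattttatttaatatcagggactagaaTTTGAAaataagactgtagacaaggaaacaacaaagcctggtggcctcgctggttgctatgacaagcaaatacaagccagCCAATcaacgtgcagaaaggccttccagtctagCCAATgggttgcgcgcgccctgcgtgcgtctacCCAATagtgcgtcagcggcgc

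Over the promoters of 9253 tested genes, 439 genes called higher and 206 called lower, the κB consensus stood in 8.73%, 10.3% and 7.77%. The ISRE core stood in 2.93%, 5.24% and 2.91%, and TGANTCA in 4.23%, 7.52% and 4.85%. TCACNCCAC stood in 0.951%, 1.37% and 0.485%, CCAAT in 37.0%, 35.5% and 45.6%, and TTTGAA in 10.7% of all, 57 of the 439 higher and 33 of the 206 lower genes. A match describes the letters and not a bound site.

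Of 18 chemokines tested, 14 rose and none fell, with a median log2 fold change of 1.06. Cxcl2, a neutrophil attractant, had 37.8, 29.7 and 45.9 CPM with IFNy and 99.04, 81.7 and 95.3 CPM with SE+IFNy. Ccl3, which attracts monocytes, had 395, 398 and 471 CPM against 1099, 980 and 1117 CPM. Neither gene overlapped between the groups, and the log2 fold changes were 1.29 and 1.34. Ccl22, at a lower level, had 0.760, 0.442 and 0.656 CPM against 5.45, 4.17 and 4.51 CPM. The IFN-γ-induced Cxcl9, Cxcl10 and Cxcl11 rose by 1.75, 1.37 and 2.34 on the log2 scale. Ccl2 (0.36), Ccl8 (0.36), Ccl25 (0.45) and Pf4 (-0.50) were not called. Of 13 chemoattractant receptors, 4 rose: Ccrl2, Cxcr4 (1.38), Cx3cr1 (1.18) and Fpr2 (0.78), the last not without the second IFNy library (0.52) or the first or the third SE+IFNy library (0.77 and 0.66).

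**Figure D2:**
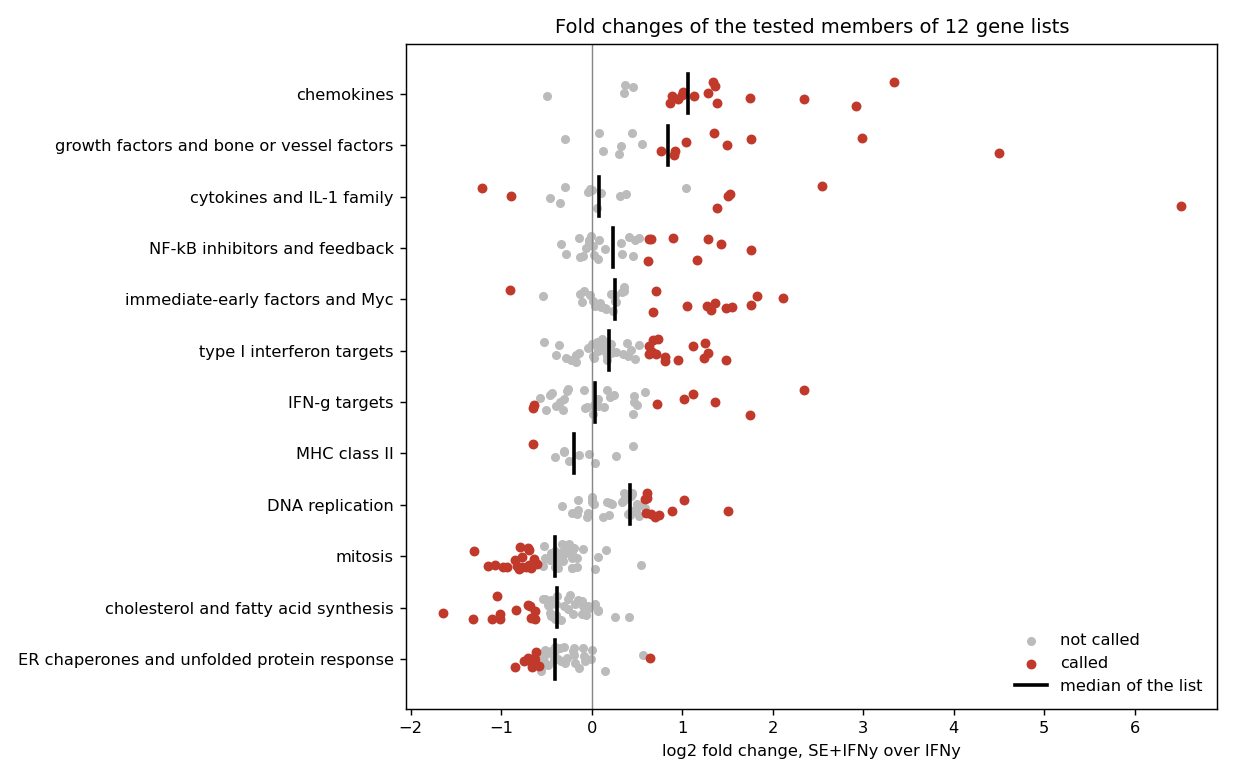
Log2 fold changes, SE+IFNy over IFNy, of the tested members of 12 gene lists, with 1 point per gene, called genes in red, others in grey, and a bar at the median of the list. Chemokines have a median of 1.06 and mitosis genes of -0.40, and the point farthest to the right is Csf3, whose fitted value rests on 1 read in the IFNy libraries.

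Of 16 growth, bone and vessel factors, 9 rose and none fell (median 0.84). Pgf, a growth factor of the VEGF family, had 0.560, 0.964 and 0.891 CPM with IFNy and 20.9, 15.8 and 18 CPM with SE+IFNy, a log2 fold change of 4.50 ± 0.173 (adjusted p = 9.27e-12). Edn1, which encodes a vasoconstrictor peptide, rose by 2.98, Hbegf by 1.76 and Vegfa by 0.76. Of 18 cytokine genes, Il1a, Il1b, Il1rn, Il27 and Csf3 rose, and Il1r1 and Il23a fell (median 0.08). Il1rn, the antagonist of the IL-1 receptor, had 152, 101 and 168 CPM against 398, 308 and 386 CPM. Csf3, which encodes G-CSF, had 1, 0 and 0 reads with IFNy and 57, 36 and 33 reads with SE+IFNy, so no fold is given. It passed the filter on low counts only through groups other than IFNy, so its call is not taken as support. Tnf (log2 fold change 0.58) and Il6 (-0.30) were not called, and Tnf passed the fold minimum when the first or the third IFNy library was left out (0.60 and 0.66).

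Of the 5 NF-κB subunits, Relb rose, by 0.71 ± 0.0672 on the log2 scale (adjusted p = 3.02e-07). Of 28 NF-κB inhibitors and feedback genes, 8 rose and none fell (median 0.23). Tnfaip3, the deubiquitinase A20, had 9.88, 10.1 and 8.39 CPM with IFNy and 25.7, 19 and 24.7 CPM with SE+IFNy. Dusp1, a phosphatase of MAP kinases, had 24.2, 17.7 and 24.6 CPM against 80.8, 66.6 and 77.3 CPM. Both were higher in each SE+IFNy library than in any IFNy library. Traf1 rose by 1.43, while Nfkbia, the classical inhibitor, had 0.46 and was not called. Of 32 immediate-early genes, 11 rose and Nr4a2 fell (median 0.26). Egr1 had 9.40, 5.90 and 8.49 CPM against 25.03, 18.2 and 22.8 CPM, and Myc 12.04, 7.39 and 14.8 CPM against 43.3, 36.8 and 40.3 CPM. Fos was not called (0.26).

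Of 35 IFN-γ targets, 6 rose and 2 fell, against 5.01% and 2.38% of all genes tested, while the list median was 0.03. Cxcl9, Cxcl10 and Cxcl11 were among the 6 and are also counted with the chemokines. Gbp2, a guanylate-binding protein, had 154, 133 and 150.3 CPM with IFNy and 318, 262 and 305 CPM with SE+IFNy. Irf1, a transcription factor of interferon responses, had 141, 186 and 146 CPM against 95.2, 99.2 and 109 CPM. Ciita, the master regulator of MHC class II genes, had 19.4, 23.9 and 18.5 CPM against 14.5, 11.6 and 13.3 CPM. Gbp2 rose by 1.02 on the log2 scale, Irf1 fell by 0.64 and Ciita fell by 0.65. Without the second IFNy library, Irf1 (-0.51) and Ciita (-0.53) were under the fold minimum, as was Ciita without the second SE+IFNy library (-0.57). Ciita was the 1 called member of 10 on the MHC class II list (median -0.20), and none of 20 MHC class I and immunoproteasome genes was called. Of 48 type I interferon targets, 14 rose and none fell (median 0.19). Irf7, the regulator of type I interferon genes, had 158, 127 and 170.2 CPM against 364, 359 and 355 CPM. Rsad2, the antiviral enzyme viperin, had 19.3, 17.8 and 17.6 CPM against 47.5, 36.4 and 45.2 CPM. The log2 fold changes were 1.25 and 1.24, with no overlap for either gene.

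Of 45 DNA replication genes, 10 rose and none fell (median 0.42). Lig1, the ligase that joins replication fragments, had 42.5, 39.1 and 44.2 CPM with IFNy and 85.4, 82.1 and 85.9 CPM with SE+IFNy. Mcm6, of the replicative helicase, rose by 0.88, Uhrf1 by 0.74 and Pcna, the sliding clamp, by 0.66. Of 50 mitosis genes, 18 fell and none rose (median -0.40). Ccnb2, a mitotic cyclin, had 74.6, 56.4 and 77.9 CPM with IFNy and 23.02, 28.1 and 33.7 CPM with SE+IFNy, a log2 fold change of -1.30 ± 0.121 (adjusted p = 2.63e-07). Cdc20, an activator of the anaphase-promoting complex, fell by 1.07, Aspm of the spindle poles by 1.14 and the kinase gene Plk1 by 0.94. Mki67 (-0.21), Top2a (-0.16) and Bub1 (0.07) were not called. The second IFNy library stood apart in mitosis genes, with a mean log2 level of 4.79 against 5.24 and 5.26, inside the range of the SE+IFNy libraries (4.56 to 4.80). Without it, 23 mitosis genes fell and 7 replication genes rose.

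Of 44 sterol and fatty acid synthesis genes, 12 fell and none rose (median -0.39). Scd2 (chr19:44293674-44306864, GRCm38), a desaturase that makes monounsaturated fatty acids, had 429.6, 421 and 387 CPM with IFNy and 118, 132 and 147 CPM with SE+IFNy. Its log2 fold change was -1.64 ± 0.0666 (adjusted p = 1.53e-11). Mvd of the mevalonate pathway had 89.4, 96.8 and 94.6 CPM against 51.2, 52.2 and 53.8 CPM. Both genes were lower in every SE+IFNy library than in any IFNy library. Mvd fell by 0.83 on the log2 scale, Fdps of the same pathway by 1.04, and Fasn, the fatty acid synthase, by 0.67. Sqle, the squalene epoxidase, had -0.52 and was not called, though it passed without the third SE+IFNy library (-0.59). Of 40 ER chaperone and unfolded protein response genes, 9 fell and Ern1 rose (median -0.41). Hsp90b1, an ER chaperone, had 4879, 5188 and 4734 CPM against 2911, 3099 and 3038 CPM, with no overlap. Hspa5, the chaperone BiP, had -0.38 and was not called.

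Kbtbd11 (-1.21), Pi16 (-1.16), Acy1 (-1.10) and Slc9a9 (-1.06) were the leading falls outside those lists, as log2 fold changes. Bglap2 (-1.61) was there too, but has near-identical copies, so its reads are uncertain. Of 31 osteoclast genes, Mmp9, Ocstamp, Atp6v0d2 and Src rose and none fell (median 0.15), where 5.01% of all genes tested were higher and 2.38% lower. The same shares stand beside the other list counts here. Mmp9 (0.52) and Ocstamp (0.57) were under the fold minimum without the second IFNy library, and Mmp9 (0.56) without the third SE+IFNy library. Acp5 (0.43) and Ctsk (0.15), which encode osteoclast enzymes, were not called. Of 28 NRF2 targets, 5 rose and 1 fell, with Hmox1, which degrades haem, at 1026, 920.2 and 1168 CPM against 2288, 2149 and 2129 CPM. Of 11 nitric oxide and arginine genes, Arg2, Ass1, Odc1 and Slc7a2 (0, 1 and 4 reads against 20, 22 and 16 reads) rose (Arg2 not by DESeq2, adjusted p = 0.0501), while Nos2, the inducible nitric oxide synthase, had 0.47 and was not called. Slc7a2 passed the filter on low counts only through groups other than IFNy, so its call is not taken as support. Of 77 nuclear-encoded respiratory chain genes, 1 was called. A part of the genes that the study reports for SE was also checked. They were drawn from its own libraries, which include these, and are not independent evidence. Of the genes checked, 24 of 26 listed as higher and 9 of 18 listed as lower were called in that direction.

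SE+IFNy was then set against the other peptides given with IFN-γ at the same dose and time. The comparisons share the SE+IFNy libraries, so each is given by its own values. Against LE+IFNy, 1.62% of 12720 genes were higher with SE and 3.31% lower. Against PE+IFNy, 5.25% were higher and 2.34% lower. Of 18 chemokines, 2 were higher and 1 lower with SE than with LE (median 0.01), and 14 were higher and 1 lower with SE than with PE (median 1.21). Ccl5 had 81.3 ± 7.50 CPM (SD, n = 3) with SE+IFNy, 31.5 ± 0.901 CPM with LE+IFNy and 14.7 ± 0.356 CPM with PE+IFNy. The log2 difference of SE was 1.38 ± 0.0738 from LE (adjusted p = 5.44e-09) and 2.47 ± 0.0796 from PE (adjusted p = 8.71e-13). Cxcl2 had 92.02 ± 9.16 CPM with SE+IFNy, 174 ± 15.7 CPM with LE+IFNy and 41.02 ± 2.34 CPM with PE+IFNy. It was lower with SE than with LE and higher than with PE.

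**Figure D3:**
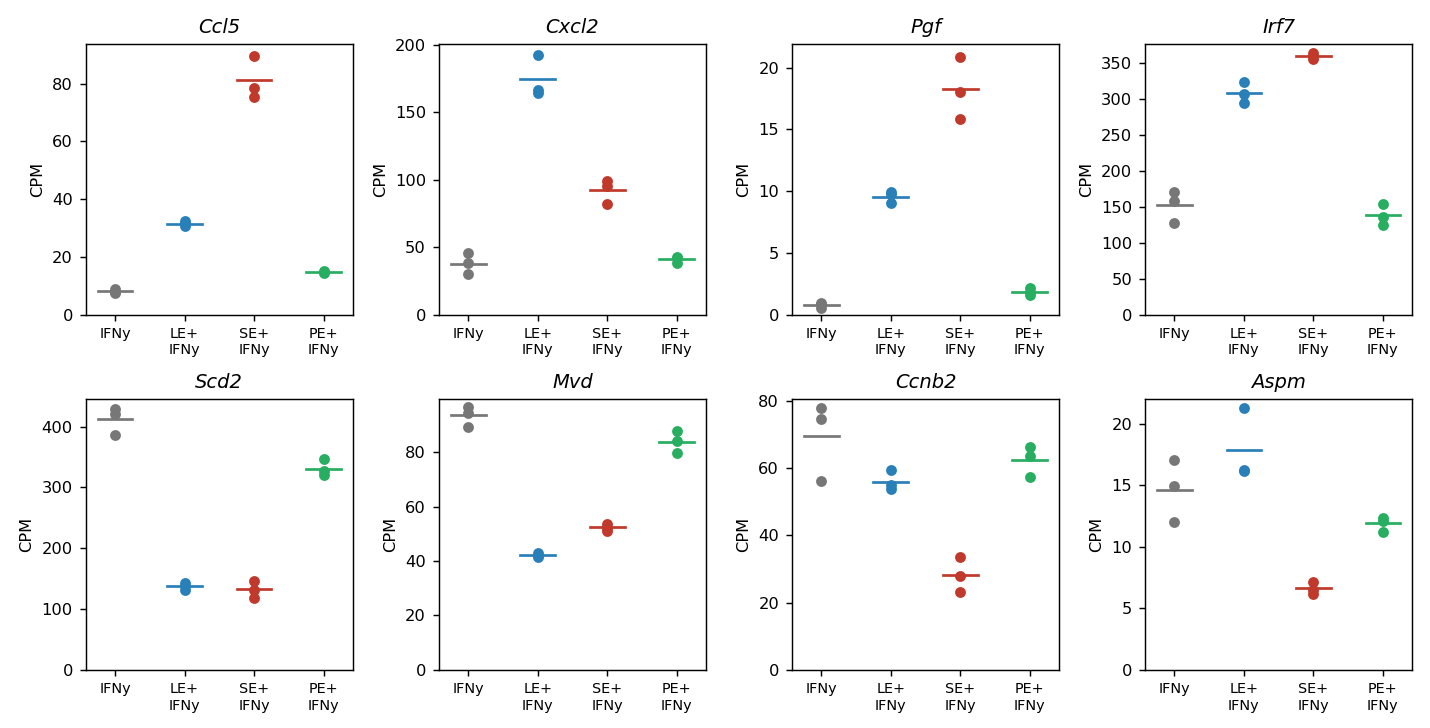
CPM (linear axes from 0) of 8 genes in the 4 letter-named groups with IFN-γ, with 1 point per library and a bar at the mean of 3 libraries. Scd2 and Mvd are low with both LE+IFNy and SE+IFNy, while Ccnb2 and Aspm are lowest with SE+IFNy.

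The mitosis list set SE apart from LE: 47 of 50 genes were lower with SE than with LE (median -0.95), and 10 were lower than with PE (median -0.30). Of 45 DNA replication genes, 7 were lower and none higher with SE than with LE (median -0.37), against 3.31% of all genes lower. Against PE, 3 of them were higher with SE and none lower (median 0.25). Aspm had 6.61 ± 0.508 CPM with SE+IFNy, 17.9 ± 2.92 CPM with LE+IFNy and 11.9 ± 0.588 CPM with PE+IFNy. The 44 sterol and fatty acid genes had a median log2 difference of 0.10 between SE and LE, and 9 of them were lower with SE than with PE. Scd2 had a log2 difference of -0.05 ± 0.0662 between SE and LE (adjusted p = 0.623) and of -1.33 ± 0.0662 between SE and PE (adjusted p = 2.69e-10). Across genes, the log2 difference between SE and LE moved with GC content (Spearman's rho 0.465) and transcript length (-0.357). With both trends subtracted, 47 mitosis genes were called lower.

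SE was also given without IFN-γ. Against PBS, 0.676% of 12420 genes were higher with SE and 1.25% lower, 239 in all, from libraries that the comparison with IFN-γ does not use. Of the genes called with IFN-γ, 824 could be tested here, and 43 of them were called in both comparisons. Of these, 18 went in opposite directions, Bglap2 among them, and 25 (3.03%) in the same direction, which is 10.8% of the 232 genes called against PBS that were tested in both. Lcn2, which binds bacterial siderophores, rose by 0.75 with IFN-γ and 1.60 without, and Procr, the protein C receptor, by 1.03 and 1.24. Ccl5 rose by 3.34 and 1.30, and Irf7 by 1.25 and 0.74. Itga4, an integrin subunit, fell by 1.00 and 0.71, and Prr11 of the mitosis list by 0.84 and 0.87. Of 50 mitosis genes 13 fell against PBS (median -0.47). That count was 6 with the length and GC trends subtracted, 8 without the third PBS library, and 0 without the first or the third replicate of every group. Of 44 sterol and fatty acid genes none was called (median -0.07). The count of 239 rested on single libraries: it was 48 without the third SE library, 105 without the first, 381 without the second, 103 without the first PBS library and 145 without the third. The fold changes moved with transcript length (Spearman's rho -0.477 across genes), and 109 genes were called with the length and GC trends subtracted.

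**Figure D4:**
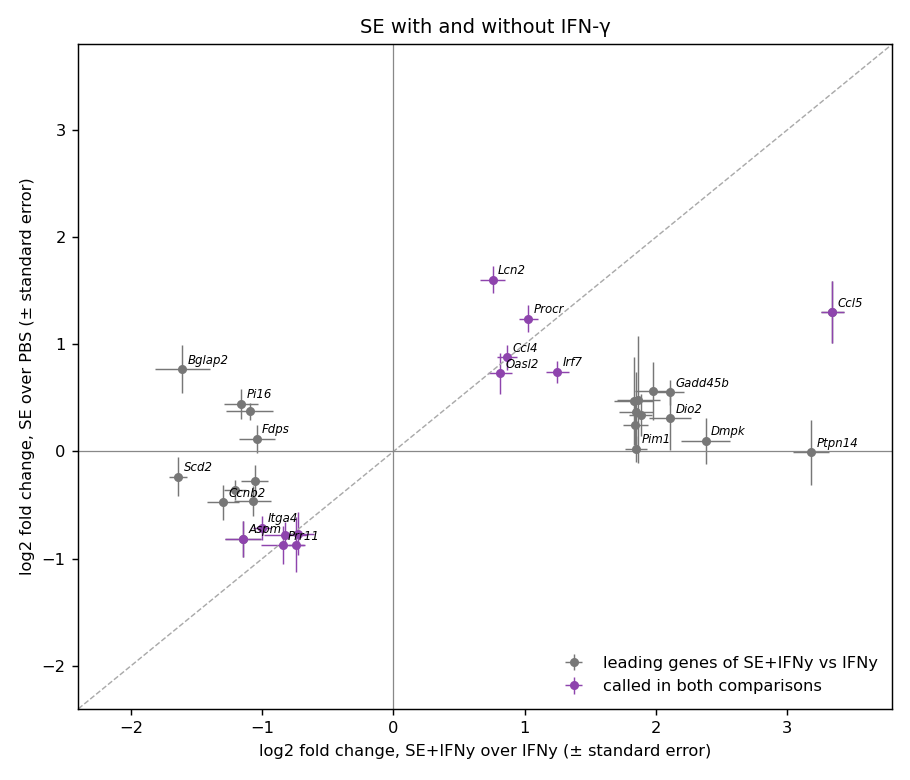
Log2 fold change of SE+IFNy over IFNy (horizontal) against SE over PBS (vertical), with standard errors as bars. Leading genes are in grey, and the top genes called in both comparisons in the same direction are in purple. Genes called in both in opposite directions were not eligible for purple, and Bglap2 is grey. The dashed line marks equal values. Ptpn14 (3.18 and -0.01) lies on the horizontal axis, and Lcn2 (0.75 and 1.60) lies above the dashed line.

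The difference between the effect of SE with IFN-γ and its effect without was tested in one model. Of 12723 genes, 7.56% were called. Ptpn14 differed by 3.18 on the log2 scale (adjusted p = 1.81e-05), Scd2 by -1.41 (adjusted p = 2.68e-04) and Lcn2 by -0.85 (adjusted p = 0.00460). Procr (-0.21, adjusted p = 0.366) and Aspm (-0.34, adjusted p = 0.255) did not pass the test.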

How the data were processed

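Poly(A) RNA of RAW264.7 cells was sequenced as stranded single-end libraries. The deposited counts are whole reads per gene, made by the authors with featureCounts on mouse GRCm38.p5 with GENCODE M12, from uniquely mapped reads; the strand setting of the counting is not given in the sources used here. Reads of antisense partners and near-identical copies may therefore be misassigned. Symbols and coordinates came from GENCODE on GRCm38, and promoters from RefSeq. Counts were tested with edgeR 4.0.16 (TMM, filterByExpr, quasi-likelihood F test, Benjamini-Hochberg adjustment) in R 4.3.3, on the 12 libraries of 4 groups in each fit. Standard errors were derived from the F statistic. CPM of single genes and the mean levels of the mitosis genes were scaled by TMM over the 24 letter-named libraries. The marker sums and the means of the IFN-γ targets by label used plain library totals. DESeq2 1.42.0 was an alternative, beside other filters, thresholds, scaling, the replicate block, leaving out libraries, and a length and GC correction (loess, span 0.4). In counts simulated for SE+IFNy against IFNy over 12565 genes, an adjusted p under 0.05 was reached by 76% of genes changed 1.5-fold, 88% at 2-fold, 86% at 3-fold and 100% at 4-fold. The fold minimum was not applied there, and fewer genes were changed than reached that adjusted p in the data (4243). These shares are therefore not the shares that would be called. Named genes were the 12 of largest fold change in each direction among called genes of at least 10 CPM without overlap, up to 4 or 6 in the other comparisons, and list members; some genes, among them 2 leading lower genes, are not reported here. Members, lists and rules were chosen with earlier results of these data known.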

Additional observations from a re-analysis of the deposited data

Results flagged for a closer look

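The effect of SE with IFN-γ differed from its effect without IFN-γ for 18 of the 22 leading genes reported here, by an interaction term in edgeR at an adjusted p under 0.05. The differences, on the log2 scale, were 3.18 for Ptpn14, 2.26 for Dmpk, 2.03 for Ccl5, 1.82 for Pim1, 1.775 for Dio2, 1.59 for Id2, 1.55 for Gadd45b, 1.53 for Ccrl2, 1.47 for Ccdc155 and 1.41 for Acod1. Among the lower genes they were -2.38 for Bglap2, -1.61 for Pi16, -1.475 for Acy1, -1.41 for Scd2, -1.17 for Fdps, -0.86 for Kbtbd11, -0.83 for Ccnb2 and -0.79 for Slc9a9. Upp1, Myc, Aspm and Cdc20 did not pass (adjusted p = 0.208, 0.0531, 0.255 and 0.0879). All 18 differences also exceeded the fold minimum of 1.5 (0.585 on the log2 scale). At both thresholds, 7.56% of all 12723 genes were called. The leading genes were chosen for their effect with IFN-γ, and the IFNy and SE+IFNy libraries enter the difference, so these values describe the genes and are not independent support.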

How the results depend on the processing

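For SE+IFNy against IFNy, 940 genes were called. A fold change over 2 gave 358 and no fold minimum 4243. DESeq2 gave 884 and the length and GC correction 914, with 62.3% higher against 67.8%. Leaving out a library gave 799 to 998, of which 750 to 849 were among the 940. The HLA-named libraries alone gave 10 and both sets together 7. For SE+IFNy against LE+IFNy (627) a fold over 2 gave 127, no minimum 4525, the HLA-named libraries 2236 and leaving out a library 435 to 692. For SE+IFNy against PE+IFNy (966) the same gave 359, 4373, 2051 and 791 to 1072, and both sets 439. The 2236 and 2051 set HLA-named libraries labelled SE+IFNy, without the IFN-γ response, against libraries with it. For SE against PBS (239) a fold over 2 gave 46, no minimum 1782, the length and GC correction 109 and leaving out a library 48 to 381. The HLA-named libraries gave 0 by edgeR (1046 at an unadjusted p under 0.05), as did both sets together (836). Leaving out 1 replicate number from every group, chosen after seeing the data, gave 3, 419 and 17 there. The causes were not tested. The replicate numbers were shared by the groups. Same-numbered SE+IFNy and IFNy libraries deviated together weakly (r = 0.0795, 0.111 and 0.035), against -0.117 to 0.0496 for the differently numbered pairs. For SE+IFNy and LE+IFNy, r was 0.00886, 0.123 and 0.0891. SE and PBS libraries gave 0.331, -0.105 and 0.305, and SE+IFNy and PE+IFNy gave -0.000625, -0.173 and -0.113. The third SE+IFNy library correlated better with the first IFNy library (0.0496). With the replicate block, 949 genes were called for SE+IFNy against IFNy, 626 against LE+IFNy, 968 against PE+IFNy, and 344 for SE against PBS. A level under 3 reads (0.118 to 0.142 CPM) was not told from 0. Of 99 named genes, 88 to 97 kept their direction and call when a library of the 2 groups was left out, with the fewest without the second IFNy library, and none turned. In the HLA-named libraries alone, 53.6% of 862 called genes kept their sign, against 52.3% of all 12311 genes tested in both. Called genes thus kept their sign there about as often as all genes. Of 94 named genes tested there, the 41 that follow were called in either set and had the opposite sign, several with values near 0. In the HLA-named libraries alone, which went against their labels, the log2 fold change of SE+IFNy over IFNy had the opposite sign for Acsbg1 (-1.69), Acy1 (0.28), Bglap2 (0.39), Ccl22 (-0.074), Ccl3 (-0.36), Cd33 (0.61), Ciita (0.36), Cxcl10 (-0.84), Cxcl11 (-4.62), Cxcl2 (-0.53), Dmpk (-0.14), Dusp1 (-0.15), Egr1 (-0.0401), Ern1 (-0.0892), Fasn (0.38), Fdps (0.0439), Fos (-0.79), Gadd45b (-0.53), Hbegf (-0.25), Il1b (-1.39), Il1rn (-0.026), Il27 (-0.95), Irf1 (0.10), Irf7 (-0.13), Kbtbd11 (0.11), Lcn2 (-0.62), Myc (-0.26), Ocstamp (-0.47), Odc1 (-0.26), Pdgfra (-0.64), Pgf (-0.11), Procr (-0.0585), Prr11 (0.15), Relb (-0.0183), Rsad2 (-0.0565), Scd2 (0.0898), Slc7a2 (-0.19), Src (-0.0323), Tnfaip3 (-0.0943), Traf1 (-0.38) and Vegfa (-0.19).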
